A study of Homo sapiens with 8 samples.

Results

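The genes that write, copy, read and erase DNA methylation were followed in RNA-seq libraries of 2 Burkitt lymphoma cell lines treated with an HDAC inhibitor. The group was named gene by gene for its role, by a rule that uses no measured value although earlier results of these data were known, and holds 9 of the 63967 gene labels in the deposited table. These are the maintenance enzyme DNMT1 with UHRF1 and UHRF2, the de novo enzymes DNMT3A and DNMT3B, the oxidizing enzymes TET1, TET2 and TET3, and the methyl-CpG reader MBD2. Values could be placed for 8 of the 9. UHRF1 was not analysed here, because its label lies outside the rows in which labels and values could be matched.

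Raji is a rituximab-sensitive line, and Raji-4RH was derived from it by repeated exposure to rituximab. Each line received DMSO or 3 μM chidamide for 24 h and was then collected by flow sorting, with 2 libraries in each of the 4 groups. There is 1 sensitive and 1 resistant line, so resistance and other differences between these lines cannot be told apart. All 7 B cell markers checked were present, with a summed level of 1323 to 2292 FPKM per library. The sum of 4 myeloid markers was 1.03 and 1.04 FPKM in Raji DMSO and 9.71 and 9.73 with chidamide, and 0.991 and 0.917 in Raji-4RH DMSO and 9.79 and 10.7 with chidamide. That of 4 T cell markers was 0.0712 and 0.0782 FPKM in Raji DMSO and 0.815 and 1.05 with chidamide, and 0.646 and 0.891 in Raji-4RH DMSO and 3.96 and 4.89 with chidamide. Both sums were higher in each chidamide library than in the DMSO libraries of the same line, and their part in the members' values was not tested. Markers of epithelium (4 genes) summed to 0.00705 to 0.651 FPKM. Library totals ran from 13991697 to 21193441 reads, and replicates of every group differed by more than the sampling noise of their reads. The Raji-4RH chidamide replicates differed most, with a chi-square of 11.8 per value against 1.78 to 4.47 in the other groups. The labels do not say that replicates came from separate cultures, so p-values measure the spread between these libraries only, which may be technical.

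Cytosine methylation at CpG sites is set by the de novo enzymes DNMT3A and DNMT3B. It is copied after replication by DNMT1, which UHRF1 guides to freshly copied DNA by binding sites methylated on the old strand. TET enzymes oxidize the methyl group, which can then be removed by repair or lost through replication. MBD2 binds methylated CpG and belongs to the NuRD complex, which also holds the histone deacetylases that chidamide inhibits. In germinal center B cells, the cells that Burkitt lymphoma resembles, DNMT1 is known to be high.

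Promoter sequences of 4 genes are shown because their genes carry the main results. DNMT1 was the most abundant member and fell, and HELLS, a chromatin remodeler of DNA methylation, fell with it. DNMT3A and TET1 were close to absent in untreated Raji and present in Raji-4RH. The windows are those of RefSeq on GRCh38.p14, from 250 bases before to 50 bases after a gene's start, printed 5′ to 3′ on the gene's strand. Capitals in the DNMT1 and HELLS windows mark E2F-type motifs, searched on both strands as TTTCCCGC, TTTCGCGC, TTTGCCGC and TTTGGCGC. Capitals in the DNMT3A and TET1 windows mark every CpG, the target of the enzymes themselves.
DNMT1, chr19:10194904-10195203, minus strand: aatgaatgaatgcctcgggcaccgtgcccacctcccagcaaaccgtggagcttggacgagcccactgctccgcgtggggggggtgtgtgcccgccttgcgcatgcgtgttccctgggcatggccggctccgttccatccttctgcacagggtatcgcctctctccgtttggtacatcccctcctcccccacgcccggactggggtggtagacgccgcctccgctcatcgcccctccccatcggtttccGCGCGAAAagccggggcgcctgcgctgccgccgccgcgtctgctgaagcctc
HELLS, chr10:94545538-94545837, plus strand: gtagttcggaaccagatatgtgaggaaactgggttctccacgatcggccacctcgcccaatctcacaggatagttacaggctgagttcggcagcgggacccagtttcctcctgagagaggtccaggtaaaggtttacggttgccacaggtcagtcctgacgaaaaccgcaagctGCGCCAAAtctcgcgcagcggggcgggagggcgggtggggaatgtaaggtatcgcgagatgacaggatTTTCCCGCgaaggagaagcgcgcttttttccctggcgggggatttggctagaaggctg
DNMT3A, chr2:25342541-25342840, minus strand: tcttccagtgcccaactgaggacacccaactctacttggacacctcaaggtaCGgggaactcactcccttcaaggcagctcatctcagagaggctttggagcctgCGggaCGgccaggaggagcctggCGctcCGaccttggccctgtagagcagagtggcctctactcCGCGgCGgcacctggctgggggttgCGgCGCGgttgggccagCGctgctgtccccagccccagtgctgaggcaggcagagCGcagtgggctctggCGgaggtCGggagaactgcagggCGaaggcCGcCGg
TET1, chr10:68560087-68560386, plus strand: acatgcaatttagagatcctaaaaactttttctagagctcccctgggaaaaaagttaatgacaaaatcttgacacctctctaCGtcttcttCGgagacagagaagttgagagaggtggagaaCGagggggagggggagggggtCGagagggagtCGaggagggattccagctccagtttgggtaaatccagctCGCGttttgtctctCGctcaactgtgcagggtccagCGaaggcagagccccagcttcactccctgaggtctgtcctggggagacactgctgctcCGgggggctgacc

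The DNMT1 window held 1 match, TTTCGCGC on the opposite strand, and the HELLS window held 2 matches that do not overlap. At least 1 of the 4 motifs was found in 3.31% of all 35116 RefSeq windows. None of the windows listed for DNMT3A, DNMT3B, UHRF2, TET1, TET2, TET3 or MBD2 held a match. Of the 3 UHRF1 windows, the 2 nearest to the gene's start each held 1 match, although its expression was not analysed. CDCA7, LIG1 and 1 of the 2 PCNA windows also held 1 match each, and no other partners were searched. With HELLS, they are the partners of maintenance methylation that fell most with chidamide in both lines. Partners that rose were not searched, so the share over all windows is no fair comparison for these matches. Whether the motifs bear on the falls was not tested. A match is a run of letters and does not show binding, and its absence says only that these letters are not in the window. The DNMT1 window held 30 CpG sites, the DNMT3A window 18 and the TET1 window 10, against a median of 14 over all windows. RefSeq lists 6 windows for DNMT3A and 3 for TET1, and those shown are the nearest to the gene's start in GENCODE v29. All 9 members matched an entry by symbol, and the single DNMT1 window lies 36333 bases inside the GENCODE start of that gene. The single DNMT3B window lies 17467 bases from the GENCODE start of DNMT3B and held 3 CpG sites. The sequence at that start was therefore not searched. The expression values do not show which start was used.

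Levels are given as FPKM, the reads of a gene scaled to the length of its exons and to the total of the library. Differences were tested with limma on log2(FPKM + 1) in 1 fit over the 8 libraries, and p-values were adjusted by Benjamini-Hochberg over the 10710 genes that reached 1 FPKM in 2 or more libraries. The added 1 makes fold changes of low genes smaller than they are. Groups of 2 could reach no two-sided p-value below 0.333 in an exact permutation test, and the adjusted p-values therefore depend on limma's pooling of the spread across genes. In these bulk samples, fewer cells of a type and less RNA per cell cannot be told apart. Of the 8 placed members, 7 passed this filter. DNMT3A passed through 3 Raji-4RH libraries and TET2 through the 2 Raji-4RH chidamide libraries alone, and TET1 reached 1 FPKM in 1 library and was not tested.

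With chidamide, 6 of the 7 tested members changed in Raji-4RH, DNMT3A, TET2 and UHRF2 upward and DNMT1, TET3 and MBD2 downward. Of all genes tested, 74.9% were called in that comparison, 43.3% higher and 31.6% lower, so a call alone does not set these genes apart. Over all genes tested the log2 fold change had a median of 0.093, and after quantile normalization it was -0.022, with 3718 genes higher and 4057 lower in place of 4642 and 3380. In Raji, 4 of the 7 changed, DNMT3A, UHRF2 and TET2 upward and DNMT1 downward, against 60.0% of all genes (31.5% higher and 28.5% lower). All 7 differed between the DMSO groups, 6 higher in Raji-4RH and DNMT1 lower, against 73.6% of all genes (41.2% higher and 32.4% lower). Of the 6, DNMT3A and TET2 passed the filter through Raji-4RH libraries alone, and TET2 turned to -0.070 after quantile normalization. The chidamide effect differed between the lines for 4 of the 7 (DNMT1, DNMT3A, UHRF2 and TET3), against 48.8% of all genes (27.2% higher and 21.7% lower). The comparisons share control libraries, so their calls are not independent of each other.

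**Figure D1:**
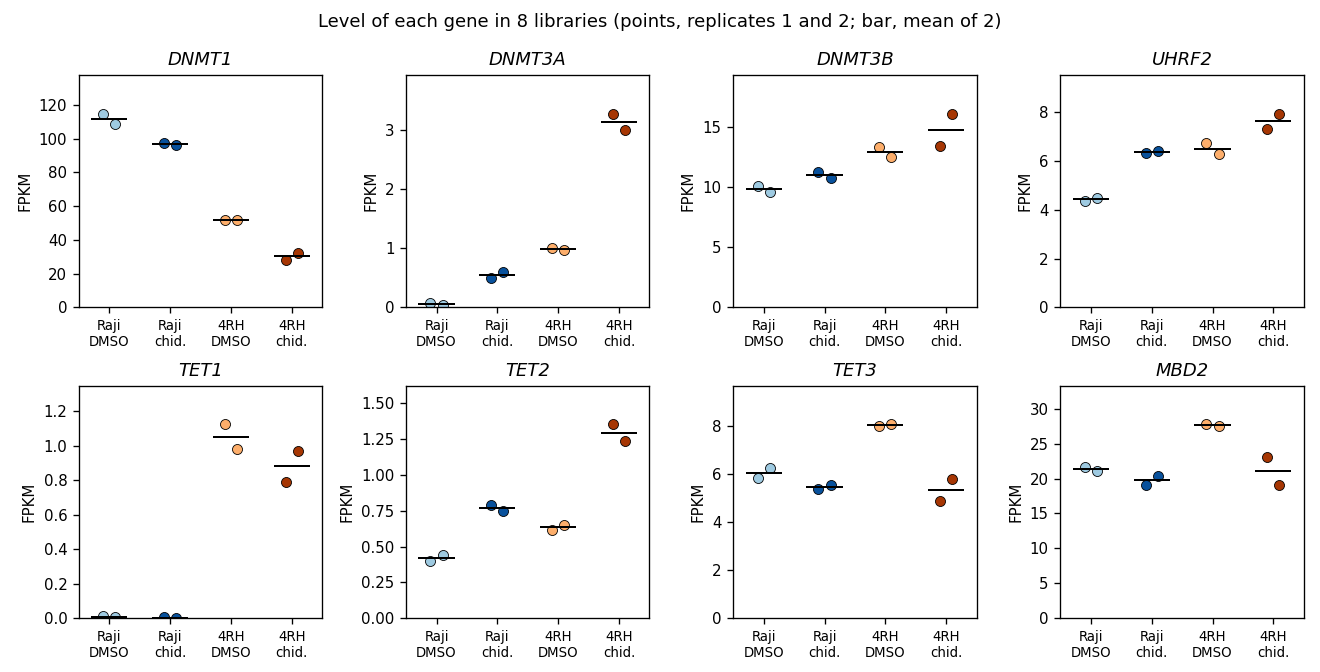
FPKM of the 8 placed genes (y axis, linear from 0, a scale for each gene) in the 4 groups (x axis, 4RH for Raji-4RH, chid. for chidamide), with a point for each library and a bar at the mean of 2. DNMT1 falls from 115 FPKM in a Raji DMSO library to 28.1 in a Raji-4RH chidamide library, while DNMT3A runs in the opposite order.

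DNMT1 (ENSG00000130816, chromosome 19 from 10133345 to 10231286 in GRCh38) restores methylation on newly copied DNA and was by far the highest of the 3 methyltransferase genes. It stood at 115 and 109 FPKM in the Raji DMSO libraries and at 97.3 and 96.5 FPKM in Raji with chidamide. In Raji-4RH it stood at 52.0 and 52.1 FPKM with DMSO and at 28.1 and 32.4 FPKM with chidamide. The 4 groups did not overlap, and each lay below the one before. Raji-4RH with DMSO was 2.15-fold below Raji with DMSO (log2 fold change -1.09, standard error 0.070, adjusted p = 1.9e-06). Chidamide lowered DNMT1 1.72-fold in Raji-4RH (log2 fold change -0.77, standard error 0.070, adjusted p = 1.6e-05). In Raji the fall was 1.15-fold (log2 fold change -0.20, adjusted p = 0.0337). That call in Raji was lost after quantile normalization (adjusted p = 0.139), without the filter on low values (0.0854) and in 6 of the 8 fits that left out 1 library (0.0577 to 0.163). The drop in Raji-4RH exceeded that in Raji by 0.56 on the log2 scale (95% interval of the difference -0.79 to -0.33, adjusted p = 0.00219). DNMT1 shares 83 bases, 0.847% of its exon length, with S1PR2 on the same strand.

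Between the untreated lines DNMT1 and most genes of S phase went opposite ways. PCNA, the sliding clamp that holds DNMT1 at replication forks, was 219 and 227 FPKM in Raji DMSO and 376 and 371 FPKM in Raji-4RH DMSO, a log2 fold change of 0.74 (adjusted p = 3.1e-06). HELLS was also higher in Raji-4RH DMSO, at 18.5 and 17.2 FPKM against 10.7 and 10.0. Of 42 S phase genes (the Seurat list without UHRF1), 29 were higher and 6 lower in Raji-4RH DMSO, with a median log2 fold change of 0.35, against 41.2% of all genes higher and 32.4% lower. With chidamide all 42 fell in Raji-4RH (median -1.75), against 31.6% of all genes lower and 43.3% higher. In Raji 36 fell and 2 rose (median -0.70), against 28.5% lower and 31.5% higher. DNMT1 fell in both lines with them, by less than their median in each line. Whether the share of cycling cells bears on DNMT1 was not tested.

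**Figure D2:**
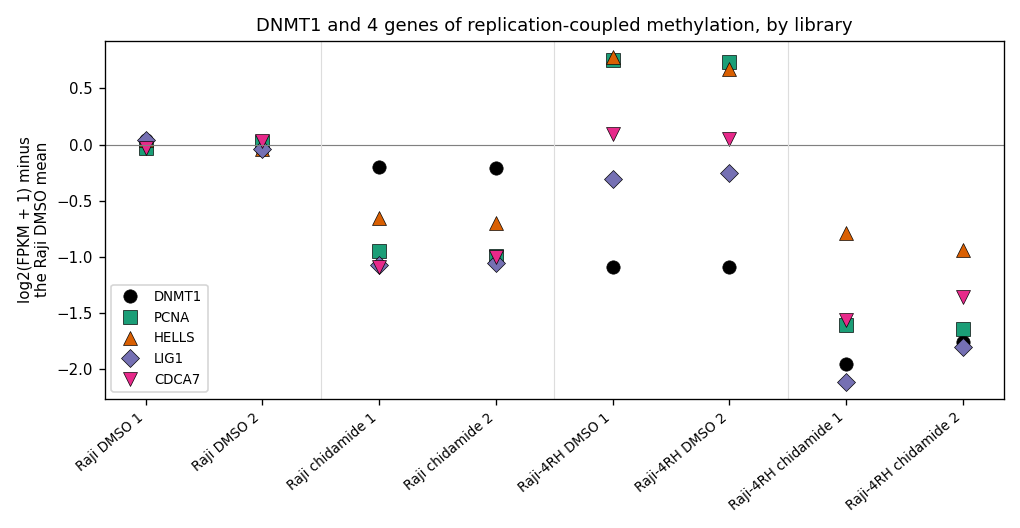
Log2(FPKM + 1) minus the mean of the 2 Raji DMSO libraries (y axis) in each library (x axis) for DNMT1, PCNA, HELLS, LIG1 and CDCA7. In the 2 Raji-4RH DMSO libraries DNMT1 lies 1.09 below Raji DMSO, where PCNA lies 0.74 and HELLS 0.73 above it.

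The partners of maintenance methylation are 7 genes besides the members, and 3 of them (CDCA7, HELLS and PCNA) are also on the S phase list. In Raji-4RH, 4 of the 7 fell with chidamide and 2 rose, against 31.6% of all genes lower and 43.3% higher. In Raji 5 fell and 2 rose, against 28.5% lower and 31.5% higher, and USP7, a deubiquitinase of DNMT1 and 1 of the 5, lost its call after quantile normalization (adjusted p = 0.149). PCNA fell by 2.36 on the log2 scale in Raji-4RH and by 0.97 in Raji. LIG1, the ligase that joins Okazaki fragments, fell by 1.68 and 1.06. HELLS fell by 1.59 and 0.67, and CDCA7, which activates HELLS, fell by 1.54 and 1.05. For all 4 the fall was larger in Raji-4RH, with differences between the lines of -1.39, -0.62, -0.92 and -0.49 in the same order and adjusted p-values from 7.8e-06 to 0.00547. The 2 that rose were DMAP1, a DNMT1-binding co-repressor (0.30 in Raji-4RH and 0.22 in Raji), and CDCA7L (0.20 and 0.32). The rise of CDCA7L in Raji-4RH was lost with median-centred samples (adjusted p = 0.116). Between the DMSO groups 5 of the 7 were higher in Raji-4RH, against 41.2% of all genes higher and 32.4% lower. LIG1 was lower (log2 fold change -0.28, adjusted p = 0.0242).

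UHRF2 (ENSG00000147854, chromosome 9 from 6413151 to 6507054) is the paralog of UHRF1 and moved against DNMT1. It stood at 4.36 and 4.49 FPKM in Raji DMSO and at 6.32 and 6.42 FPKM in Raji with chidamide. In Raji-4RH it stood at 6.72 and 6.28 FPKM with DMSO and at 7.33 and 7.94 FPKM with chidamide. Raji DMSO was the lowest group and Raji-4RH with chidamide the highest, and the 2 groups between them overlapped. In Raji chidamide raised UHRF2 1.44-fold (log2 fold change 0.44, adjusted p = 3.6e-04). In Raji-4RH the rise was 1.17-fold (log2 fold change 0.20, adjusted p = 0.0151), and it was lost after quantile normalization (adjusted p = 0.0578), with median-centred samples (0.0675), in a fit to those 4 libraries alone (0.0576) and without Raji-4RH DMSO replicate 2 (0.104) or Raji-4RH chidamide replicate 2 (0.0735). Untreated, UHRF2 was 1.47-fold higher in Raji-4RH than in Raji (adjusted p = 1.5e-04). The smaller rise in Raji-4RH (difference -0.24, 95% interval -0.44 to -0.040) was close to the threshold (adjusted p = 0.0495), and it stayed past it in 6 of 17 other fits.

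DNMT3A (ENSG00000119772, chromosome 2 from 25227855 to 25342590), a de novo methyltransferase, showed the widest range of the methyltransferases. Its 2 Raji DMSO libraries held 16 and 8 reads, or 0.0674 and 0.0330 FPKM. With chidamide Raji held 124 and 149 reads, or 0.501 and 0.595 FPKM. Raji-4RH held 227 and 248 reads (1.01 and 0.974 FPKM) with DMSO and 551 and 664 reads (3.28 and 3.00 FPKM) with chidamide. No 2 groups overlapped, and the order of the groups was the reverse of that of DNMT1. In pooled reads per library total, chidamide raised DNMT3A 10.95-fold in Raji, with an exact 95% interval of 7.21 to 17.4, and 3.15-fold in Raji-4RH, with an interval of 2.83 to 3.51. Raji-4RH DMSO exceeded Raji DMSO 19.8-fold (13.1 to 31.2). These intervals cover counting error only. On the log2(FPKM + 1) scale the rises were 0.56 in Raji (standard error 0.064, adjusted p = 1.2e-04), 1.06 in Raji-4RH (adjusted p = 1.4e-06) and 0.92 between the DMSO groups (adjusted p = 2.9e-06). DNMT3A passed the filter through 3 Raji-4RH libraries alone, the line where it is highest, so that line selected it for these tests. After quantile normalization the rises with chidamide were 0.32 in Raji (adjusted p = 0.00874) and 0.64 in Raji-4RH (adjusted p = 1.3e-04).

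Which line responded more in DNMT3A depends on the scale. On log2(FPKM + 1) the rise was larger in Raji-4RH by 0.50 (adjusted p = 0.00247). With 0.1 in place of 1 the difference turned to -0.55 (adjusted p = 0.0714), and in a limma voom fit to the recovered reads it was -1.82 (adjusted p = 0.00373), so in proportion the rise was larger in Raji. The rise within each line kept its direction in every alternative tried.

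DNMT3B (ENSG00000088305, chromosome 20 from 32762385 to 32809356), the other de novo enzyme, moved little. It stood at 10.1 and 9.60 FPKM in Raji DMSO, 11.2 and 10.7 in Raji with chidamide, 13.4 and 12.5 in untreated Raji-4RH and 13.4 and 16.1 in Raji-4RH with chidamide. The groups followed the order of DNMT3A, with the lower Raji-4RH chidamide library just above the higher DMSO library. The line difference was 1.32-fold (log2 fold change 0.36, adjusted p = 0.00386). The chidamide differences were 0.15 in Raji (95% interval -0.045 to 0.34, adjusted p = 0.164) and 0.17 in Raji-4RH (-0.018 to 0.36, adjusted p = 0.0893), so neither passed. In Raji-4RH the difference passed after quantile normalization (0.28, adjusted p = 0.0119) and without Raji-4RH chidamide replicate 1 (0.30, adjusted p = 0.00334).

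Among the genes listed as partners of de novo methylation, 5 of 7 were placed and 4 were tested. In Raji-4RH chidamide lowered 2 of the 4, against 31.6% of all genes, and in Raji 3 of the 4, against 28.5%. It raised none in either line, against 43.3% of all genes in Raji-4RH and 31.5% in Raji. NSD1, which writes the histone mark that recruits DNMT3A, fell by 0.71 in Raji-4RH and by 0.60 in Raji. TRIM28, the co-repressor of zinc finger proteins, fell by 0.64 and 0.37, and the fall in Raji was lost after quantile normalization (adjusted p = 0.0600). EHMT1, a histone methyltransferase, fell by 0.59 in Raji and had a value of -0.13 in Raji-4RH (adjusted p = 0.148).

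As a share of the summed FPKM of the 3 methyltransferase genes, DNMT1 made up 91.9% ± 0.025 in Raji DMSO (SD, n = 2 libraries here and in the other shares), 89.4% ± 0.17 in Raji with chidamide, 78.9% ± 0.75 in untreated Raji-4RH and 62.8% ± 0.14 in Raji-4RH with chidamide. DNMT3B made up 8.07% ± 0.043, 10.1% ± 0.23, 19.6% ± 0.73 and 30.6% ± 0.92 in the same order. DNMT3A went from 0.0409% ± 0.018 to 6.57% ± 1.06 between the first and last of these groups. Over those groups the level of DNMT1 went from 112 to 30.3 FPKM, and that of DNMT3B from 9.82 to 14.8 FPKM. The summed methyltransferase level fell from 122 ± 4.64 FPKM in Raji DMSO to 48.2 ± 4.79 in Raji-4RH with chidamide.

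**Figure D3:**
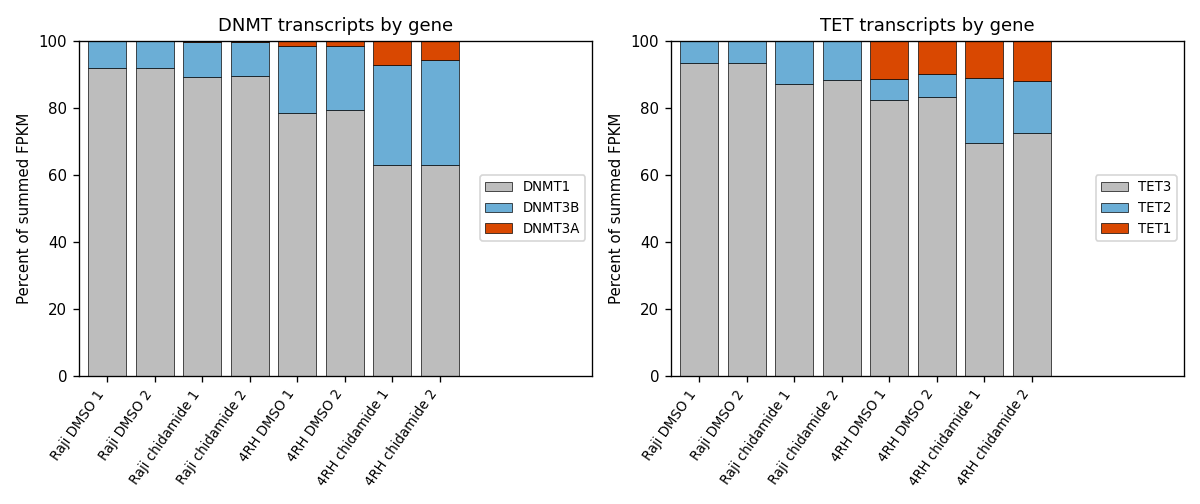
Percent of the summed FPKM (y axis) that each DNMT gene (left) and each TET gene (right) holds in each of the 8 libraries (x axis, 4RH for Raji-4RH). DNMT1 holds 91.9% in Raji DMSO and 62.8% in Raji-4RH with chidamide, and TET1 holds 10.1% to 12.1% in the Raji-4RH libraries and at most 0.175% in Raji.

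TET1 (ENSG00000138336, chromosome 10 from 68560656 to 68694482), the largest TET enzyme with its own CpG-binding domain, was present in Raji-4RH and close to absent in Raji. Raji DMSO held 2 reads and 1 read, and Raji with chidamide held 1 read and 0 reads. The 0 reads of that library allow up to 3 reads, or 0.0155 FPKM. Raji-4RH DMSO held 196 and 193 reads (1.13 and 0.980 FPKM), and Raji-4RH with chidamide 103 and 166 reads (0.793 and 0.970 FPKM). All 4 Raji-4RH libraries lay above all 4 Raji libraries. In pooled reads per library total, Raji-4RH exceeded Raji 129-fold with DMSO, with an exact 95% interval of 44.0 to 631, and 344-fold with chidamide, with an interval of 61.2 to 13634 that rests on 1 read in the 2 Raji libraries. As for DNMT3A, intervals on reads cover counting error only, here and for TET2. With no filter on low values, the line difference on log2(FPKM + 1) was 1.03 (limma, adjusted p = 1.3e-04), and the chidamide difference in Raji-4RH was -0.13 (adjusted p = 0.114).

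TET2 (ENSG00000168769, chromosome 4 from 105145875 to 105279816), a frequent tumor suppressor in lymphoma, rose with chidamide in both lines at a low level. Raji held 130 and 146 reads with DMSO (0.400 and 0.440 FPKM) and 269 and 257 with chidamide (0.792 and 0.749 FPKM). Raji-4RH held 191 and 228 reads with DMSO (0.618 and 0.653 FPKM) and 312 and 375 with chidamide (1.35 and 1.24 FPKM). No 2 groups overlapped, and both chidamide groups lay above both DMSO groups. The rise was 1.83-fold in Raji in pooled reads (exact 95% interval 1.58 to 2.13) and 2.02-fold in Raji-4RH (1.79 to 2.29). On log2(FPKM + 1) it was 0.32 (adjusted p = 0.00168) and 0.49 (adjusted p = 8.2e-05), with no call for the difference between them (0.17, 95% interval -0.020 to 0.36, adjusted p = 0.122). TET2 passed the filter through the group where it is highest, and with no filter the adjusted p-values of the rises were 0.00224 in Raji and 2.8e-04 in Raji-4RH. After quantile normalization the signs turned, to -0.055 in Raji (adjusted p = 0.549) and -0.22 in Raji-4RH (adjusted p = 0.0239). In the voom fit to the reads the rise in Raji-4RH was 1.01. Untreated Raji-4RH exceeded untreated Raji 1.52-fold in pooled reads (1.30 to 1.77), a log2 fold change of 0.20 (adjusted p = 0.0120) that turned to -0.070 after quantile normalization.

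TET3 (ENSG00000187605, chromosome 2 from 73986404 to 74108176), the most abundant TET gene here, went the other way. It stood at 5.82 and 6.25 FPKM in Raji DMSO and at 5.39 and 5.56 in Raji with chidamide. Raji-4RH stood at 8.03 and 8.07 FPKM with DMSO and at 4.88 and 5.80 with chidamide. Raji-4RH DMSO was the highest group, and the 2 chidamide groups overlapped. Chidamide lowered TET3 1.51-fold in Raji-4RH (log2 fold change -0.52, standard error 0.076, adjusted p = 2.9e-04). In Raji the difference was -0.12 (95% interval -0.29 to 0.055, adjusted p = 0.209). The effects differed by -0.40 (adjusted p = 0.0157), a call that was lost in 3 fits that left out 1 library (adjusted p = 0.0520 to 0.0586). In DMSO, TET3 was 1.33-fold higher in Raji-4RH (log2 fold change 0.36, adjusted p = 0.00243).

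As a share of summed TET FPKM, TET3 made up 93.4% ± 0.043 in Raji DMSO, 87.6% ± 0.71 in Raji with chidamide, 82.7% ± 0.72 in untreated Raji-4RH and 70.9% ± 2.10 in Raji-4RH with chidamide. TET2 rose from 6.49% ± 0.11 to 12.3% ± 0.65 with chidamide in Raji and from 6.53% ± 0.28 to 17.4% ± 2.70 in Raji-4RH. TET1 held 10.8% ± 1.00 of the sum in Raji-4RH DMSO. The summed DNMT level was 18.9 ± 1.68 times the summed TET level in Raji DMSO and 17.3 ± 0.37 times in Raji with chidamide. In Raji-4RH this ratio was 6.77 ± 0.027 with DMSO and 6.41 ± 0.049 with chidamide. The ratio differed more between the lines than between the treatments.

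Of 11 tested genes that supply or follow TET oxidation, 7 rose and 2 fell with chidamide in Raji-4RH (median log2 fold change 0.31), against 43.3% of all genes higher and 31.6% lower. In Raji 4 rose and 1 fell, against 31.5% higher and 28.5% lower. GADD45A and GADD45B, stress-response genes tied to repair-based demethylation, rose by 1.42 and 1.16 on the log2 scale in Raji-4RH and by 0.50 and 0.79 in Raji. IDH2, the mitochondrial source of the TET cofactor alpha-ketoglutarate, rose by 1.40 and 0.68. The rise was larger in Raji-4RH for GADD45A and IDH2, with differences of 0.92 and 0.71 (adjusted p = 1.7e-04 and 3.4e-04). OGT, the sugar transferase that binds TET proteins, rose by 0.42 in Raji-4RH and had a value of -0.14 in Raji (adjusted p = 0.170). TDG, the glycosylase that removes oxidized methylcytosine, fell by 0.30 in Raji-4RH and by 0.51 in Raji. In the DMSO groups 7 of the 11 were lower in Raji-4RH and none was called higher, against 32.4% of all genes lower and 41.2% higher. IDH2 lay at -1.87, GADD45A at -1.48, GADD45B at -0.89 and APEX1, the abasic-site endonuclease, at -0.60.

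MBD2 (ENSG00000134046, chromosome 18 from 54151601 to 54224788) followed TET3 in its pattern. It stood at 21.7 and 21.1 FPKM in Raji DMSO, 19.1 and 20.4 in Raji with chidamide, 27.8 and 27.5 in untreated Raji-4RH and 23.1 and 19.0 in Raji-4RH with chidamide. Raji-4RH DMSO was the highest group, and the Raji-4RH chidamide libraries spanned the 2 Raji groups. MBD2 fell 1.31-fold in Raji-4RH (log2 fold change -0.38, adjusted p = 0.00312), a call lost after quantile normalization (adjusted p = 0.118). In Raji the difference was -0.11 (95% interval -0.30 to 0.082, adjusted p = 0.289). With DMSO it was 1.29-fold higher in Raji-4RH than in Raji (adjusted p = 0.00487). The difference between the effects was -0.27 (adjusted p = 0.0928), and without Raji-4RH chidamide replicate 1 it was -0.40 (adjusted p = 0.00225).

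**Figure D4:**
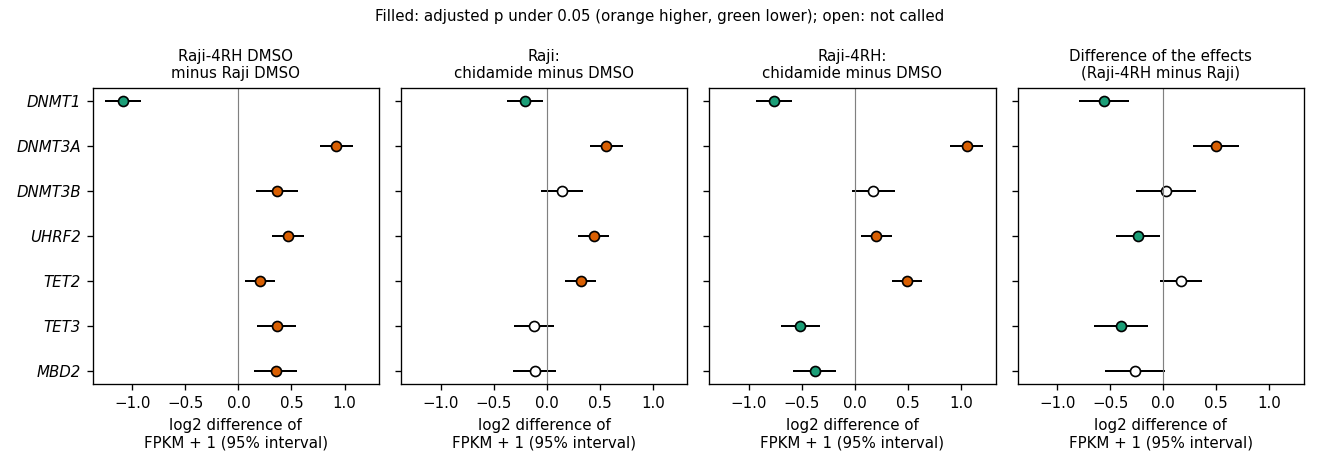
Difference of log2(FPKM + 1) with its 95% interval (x axis) for the 7 tested genes (y axis) in 4 comparisons (panels), filled where the adjusted p was under 0.05. DNMT1 lies at -1.09 between the DMSO groups and at -0.77 with chidamide in Raji-4RH, and DNMT3A at 0.92 and 1.06.

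In the NuRD complex, 9 of 13 genes fell with chidamide in Raji-4RH and 1 rose, against 31.6% of all genes lower and 43.3% higher, and in Raji 7 fell and 2 rose, against 28.5% and 31.5%. In Raji-4RH the fall of HDAC1 (-0.19) turned to 0.088 after quantile normalization (adjusted p = 0.109), and the rise of HDAC2 (0.21) lost its call (adjusted p = 0.626). In Raji HDAC1 rose by 0.48 (adjusted p = 1.4e-04), and the effects on it differed between the lines by -0.67 (adjusted p = 2.9e-04). CDK2AP1, a small subunit, fell by 1.49 in Raji-4RH and by 0.74 in Raji. RBBP4, a histone-binding subunit shared with other complexes, fell by 0.98 and 0.66, MTA2 by 0.89 and 0.43, and GATAD2A, which joins MBD2 to the remodeler, by 0.86 and 0.41. CHD3, a remodeler subunit, fell by 0.84 and 0.83. Between the DMSO groups the subunits went both ways, with CDK2AP1 at 2.15 and GATAD2A at 0.84, and MTA3 at -1.44 and CHD3 at -1.23. Of 7 other methyl-CpG readers, 2 rose and 3 fell in Raji-4RH and 1 rose and 4 fell in Raji. MBD1 rose in both (0.40 and 0.60), MBD4 fell in both (-0.40 and -0.36), and MBD3 fell in both (-0.37 and -0.51), although its fall in Raji-4RH was lost after quantile normalization (adjusted p = 0.103). Untreated, 4 of these 7 were higher in Raji-4RH, against 41.2% of all genes, with MBD1 at 0.81.

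Of the 10 genes counted in the pathway that makes the methyl donor S-adenosylmethionine, 7 fell with chidamide in each line, against 31.6% of all genes in Raji-4RH and 28.5% in Raji. In Raji the falls of AHCY (-0.23) and MTHFD2 (-0.24) lost their calls after quantile normalization (adjusted p = 0.184 and 0.222). In Raji-4RH the folate enzymes MTHFD2, MTHFD1 and SHMT1 fell by 0.97, 0.92 and 0.86. MTHFD1 had a value of -0.097 in Raji (adjusted p = 0.142), and the effects on it differed between the lines by -0.82 (adjusted p = 7.4e-05). MAT2A, which makes S-adenosylmethionine, fell by 0.64 in both lines. Its group means went from 115 to 73.2 FPKM in Raji and from 101 to 64.5 FPKM in Raji-4RH. SHMT2, the mitochondrial serine enzyme, fell by 0.49 in Raji and 0.39 in Raji-4RH, and the latter was lost after quantile normalization (adjusted p = 0.163). Between the DMSO groups 5 genes were higher and 4 lower in Raji-4RH, against 41.2% of all genes higher and 32.4% lower. MTHFD2 lay at 1.02 and MTRR at -0.47. These lists were described by their counts and were not tested as sets.

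**Figure D5:**
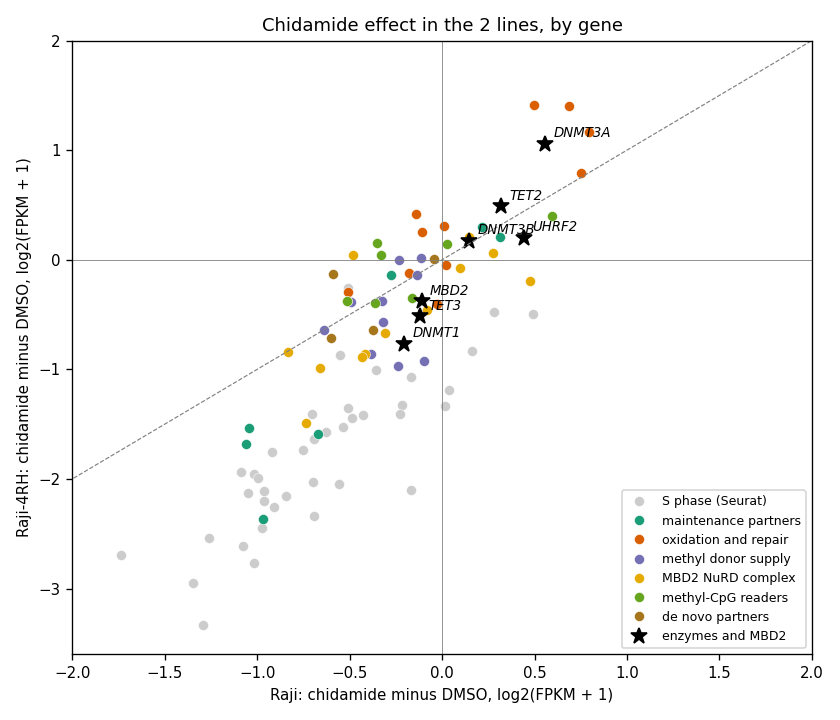
Log2 fold change with chidamide in Raji (x axis) against Raji-4RH (y axis), a point per gene, colored by list, with the enzymes and MBD2 as stars and a dashed line of equal change. HELLS, CDCA7 and PCNA are on 2 lists and MBD3 on 2. All 42 S phase genes lie below 0 on the y axis, and DNMT1 lies at -0.77, above their median of -1.75.

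The profile over the 8 libraries most like that of each tested member was found among 6609 genes whose mean reached 5 FPKM, as the root mean square difference of centred log2(FPKM + 1). DNMT1 was nearest to TUBA4A (0.087) and NAT10 (0.093), and DNMT3A to C6orf89 (0.095) and NEK7 (0.10). DNMT3B was nearest to SQSTM1 (0.044) and DEDD (0.049), and UHRF2 to HK1 (0.055) and POLL (0.060). TET2 was nearest to CCDC82 (0.058) and HIF1AN (0.060), TET3 to TMEM208 (0.030) and PPP2R5D (0.044), and MBD2 to MALSU1 (0.042) and NDUFC1 (0.052). The 8 points share 4 groups, so a small difference says that 2 genes had like group means here.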

How the data were processed

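RNA was sequenced from 8 libraries (Raji and Raji-4RH, DMSO or chidamide, 2 replicates each). The authors deposited FPKM per gene with gene lengths. The submitters' processing notes name hg38, HISAT2 2.0.5, SAMtools 1.7, HTSeq 0.9.1 and DESeq2 1.22.2. Multiplied by length and library total, 100% of non-zero values were whole reads (tolerance 0.05). The table has 63967 labels but 63305 rows of values of its own, and from part of the way down values lie below their labels. A fixed table of shifts placed 18143 labels (28.4%), with FPKM rescaled to each gene's length. Near each placed member, the shift in use gave the highest correlation across genes between reads and number of transcripts of 21 shifts tried (r from 0.244 to 0.514). Lengths equalled GENCODE v29 joined exons for 96.6% of 58039 IDs.

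Differences were tested with limma 3.58.1 (lmFit, eBayes with trend) in R 4.3.3 on log2(FPKM + 1), without a replicate block, and called at an adjusted p under 0.05. A count test was not used as the main test because the deposited values are FPKM. The recovered reads were fitted with voom as an alternative. Tested on simulated data, the fit was checked for known changes. Members and lists were chosen with earlier results of these data known. Some genes of the lists are not reported here and are left out of the counts, so a count covers only the genes kept. Up to 4 genes per list and comparison were named, the called genes of largest absolute change whose mean reached 5 FPKM, with their values in other comparisons where these are of use. Genes named because another scaling ended their call (USP7, HDAC1, HDAC2, AHCY) were chosen after their values were seen. Python 3.11.15, pandas 2.3.3, numpy 2.4.6 and matplotlib 3.10.9 were used. The alternatives were no filter or one on the mean (1 FPKM), quantile normalization, limma without trend, a pseudocount of 0.1, median-centred samples, a threshold of 1 on the log2 fold change, only the libraries compared, a replicate block, voom on the recovered reads, rows as deposited, genes before the first shift and leaving out each library. A crossed replicate block was added after the data had been seen.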

Additional observations from a re-analysis of the deposited data

Results flagged for a closer look

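The chidamide effect differed between the lines for 4 members, by limma's test of that difference over all genes. It was lower in Raji-4RH for DNMT1 (-0.56 on the log2 scale, adjusted p = 0.00219), TET3 (-0.40, adjusted p = 0.0157) and UHRF2 (-0.24, adjusted p = 0.0495). The call for UHRF2 held in 6 of 17 other fits and that for TET3 in 13 of 17. The effect itself also differed for DNMT3A. There it was higher in Raji-4RH (0.50, adjusted p = 0.00247), and the sign turned with a smaller pseudocount and with voom. Of all genes tested, 48.8% were called in this comparison, 27.2% higher and 21.7% lower. Groups of 2 libraries were too small to look for single libraries that stand apart.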

How the results depend on the processing

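Numbers of genes and of members called stayed within 1.5 times the reported counts except in the following cases. Requiring a log2 fold change of at least 1 left 1620 genes and 1 member for chidamide in Raji-4RH, 560 and 0 in Raji, 676 and 0 for the difference between the lines and 1703 and 1 between the DMSO groups. Quantile normalization left 2 members called in Raji. The rows as deposited left 3 members called in Raji-4RH. Leaving out each library gave 2 to 4 members for the difference between the lines, 2 of them without Raji DMSO replicate 1, Raji chidamide replicate 2 or Raji-4RH DMSO replicate 2.

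Quantile normalization reversed TET2 in all 4 comparisons, to -0.22 for chidamide in Raji-4RH, -0.055 in Raji, -0.17 for their difference and -0.070 between the DMSO groups, and the cause was not tested. The DNMT3A difference between the lines reversed to -0.55 with a pseudocount of 0.1 and to -1.82 with voom. That of DNMT3B, never called, reversed to -0.0084 with median-centred samples and ran from -0.097 to 0.15 without each library. The rows as deposited, which hold the values of other genes, gave 0.80 and 1.23 for DNMT1 in Raji-4RH and Raji, 0.10 and 0.13 for the differences of UHRF2 and TET3, and for TET1 0.56 in Raji-4RH, 0.099 in Raji and 0.46 for the difference. TET2 between the DMSO groups lost its call in 2 fits that left out 1 library (adjusted p up to 0.0632). The voom fit called 8113 genes for Raji-4RH, 6662 for Raji, 4716 for the difference and 8062 between the DMSO groups.

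Replicate numbers did not pair the samples (correlations of deviations from -0.28 to 0.17 across genes). With a replicate block 7886, 6183, 4915 and 7748 genes were called in the same order, and 6, 4, 3 and 7 members, with UHRF2 lost for the difference (adjusted p = 0.0753). A crossed pairing between the DMSO groups called 7969 genes. Restricting to the libraries compared gives no value for the difference between the lines, and the genes before the first shift hold DNMT3A and DNMT3B alone of the members. Reads limit TET1 in Raji, DNMT3A in untreated Raji and, less so, TET2.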
